A study of Homo sapiens with 12 samples.

Results

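The response of C4.2B cells to combined PI3K and EZH2 inhibition was compared, gene by gene, with the sum of the responses to each inhibitor alone. C4.2B cells are an established human line that models castration-resistant prostate cancer. The comparison used all 12 polyA RNA-seq libraries, 3 from each of 4 arms: DMSO vehicle, GDC (0.5 µM of GDC-0941, which inhibits the class I PI3Ks), GSK (5 µM of GSK126, which inhibits EZH2) and COMBO (both). All arms were treated for 24 h in medium with charcoal-stripped serum, which is low in androgens, and the GSK and COMBO arms had 6 days of GSK126 beforehand. The replicates were plates of a single cell line, so the p-values measure the spread between plates. Of the 23228 gene symbols in the count files, 19935 had at least 1 count and 14189 passed the filter on low counts. These 14189 genes were tested for COMBO minus GDC minus GSK plus DMSO on the log2 scale, here called the interaction. A gene above the sum had a positive interaction and a gene below the sum a negative one, at a Benjamini-Hochberg adjusted p under 0.05 (edgeR quasi-likelihood test).

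PI3K signals through AKT, which restrains the FOXO transcription factors and activates mTORC1, the kinase complex that drives ribosome, lipid and nucleotide synthesis. EZH2 is the catalytic subunit of PRC2 and trimethylates histone H3 at lysine 27, a mark of silenced genes. Adding changes on the log2 scale means multiplying fold changes. A gene that each agent lowers falls below the sum only if the pair lowers it by more than the product of both folds. A gene that each agent raises falls below the sum if the pair raises it by less than that product.

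Below the sum were 2344 genes (16.5% of those tested) and above it 690 (4.86%), and 4780 genes had an unadjusted p under 0.05. The interactions were mostly small. Their median was -0.40 among genes below the sum and 0.38 among genes above it, against a median standard error of 0.114, and only 158 genes lay below the sum by 1 or more and 31 above it by as much. Departure of a gene from the sum did not by itself place COMBO outside the other arms. Among the 2344 genes below the sum, all 3 COMBO libraries were lower than the other 9 libraries in 1229 (52.4%), higher in 149 (6.36%) and in between or overlapping in 966. Among the 690 above the sum they were the highest in 217 (31.4%), the lowest in 14 (2.03%) and in between or overlapping in 459. Over all tested genes COMBO was highest in 15.3% and lowest in 21.6%.

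The balance between the directions depended on scaling. The median interaction of all tested genes was -0.06, and calls above the sum made up 22.7% of all calls. With the interaction centred on the median gene, 1118 genes lay above and 1649 below, so that 40.4% of calls were above. TMM scaling takes a single library as its reference, here GDC B. With any of the other 5 DMSO or GDC libraries as reference, 712 to 786 genes lay above and 2155 to 2285 below. With any GSK or COMBO library as reference, 1122 to 1179 lay above and 1557 to 1641 below. Leaving out 1 library could change the reference. TMM took a GSK library in the fits without DMSO A (877 above, 1325 below), DMSO B (1178, 1643), DMSO C (732, 1282), GDC A (804, 1313), GDC B (957, 1279), GDC C (978, 1410), GSK A (849, 1294), GSK B (807, 1282) and COMBO A (1092, 1409). Without GSK C, COMBO B or COMBO C it took a DMSO or GDC library, with 748 to 790 genes above and 2046 to 2231 below. List counts quoted below for a fit other than the main one belong beside the totals of that fit, not beside 16.5% and 4.86%. The sizes quoted below use the GDC B reference and exceed the centred ones by 0.06 on the negative side. No gene called in a direction was called in the other direction in the other alternatives on the log2 scale, the changes of reference aside, for which this was not counted.

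**Figure D1:**
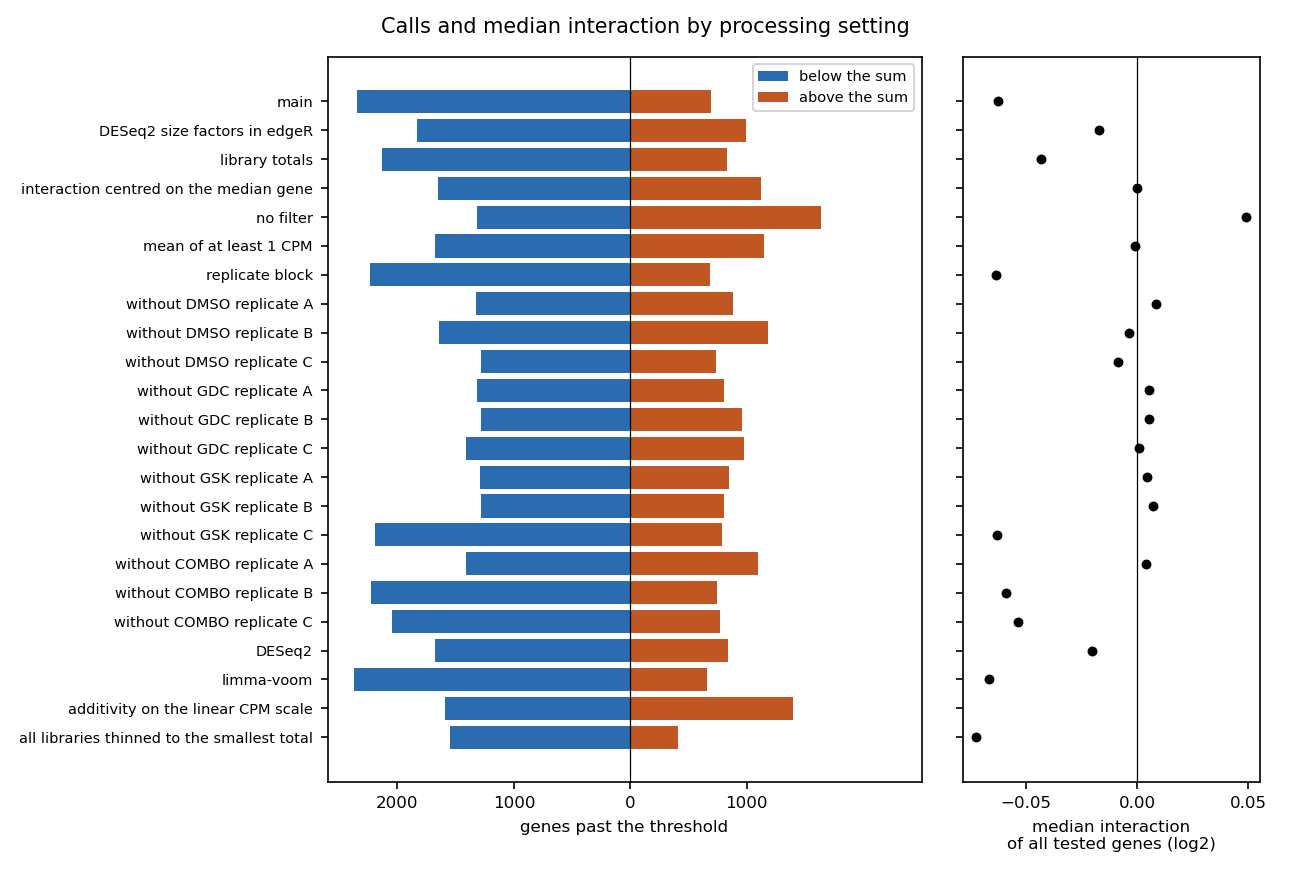
Left, genes above (orange) and below (blue) the sum under each processing setting, as bars from 0. Right, the median interaction of all tested genes (log2) under the same settings, left blank for the linear CPM scale; the 690 above and 2344 below of the top row shift toward the upper side wherever the median moves to 0.

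Counts in genes ran from 8785218 to 44437751 per library, and the share of reads outside annotated genes was 13.7% to 14.6% under DMSO, 15.2% to 15.7% under GDC, 18.5% to 18.9% under GSK and 21.0% to 23.0% under COMBO. That share itself exceeded the sum of the single effects by 1.68 percentage points (SE 0.709). Calls were more frequent among abundant genes. Below-sum calls rose from 1.79% of genes with a mean log2 CPM of 0 or less to 42% of those over 8 (CPM, counts per 1e6 reads in genes after TMM scaling). With every library thinned to the smallest total, 409 genes lay above and 1545 below. Prostate luminal markers were abundant, with a summed level of 3359 to 3584 CPM under DMSO, 4961 to 5109 under GDC, 4546 to 4956 under GSK and 5658 to 6106 under COMBO. Of 16 stromal, endothelial and immune markers 6 passed the filter. The summed level of all 16 was 23.6 to 26.5 CPM under DMSO, 28.5 to 33.4 under GDC, 50.3 to 61.7 under GSK and 47.4 to 68.6 under COMBO. COL1A1 alone ran from 9.38 to 49.9 CPM over the 12 libraries, here without TMM scaling. The part of these markers in the results was not tested. Of the 16, 2 (CD3E and HBB) had no count in any library.

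The PI3K inhibitor changed 40.1% of genes in the absence of GSK126 (GDC against DMSO) and 45.9% in its presence (COMBO against GSK). GSK126 changed 75.7% without and 76% with GDC-0941. These paired comparisons share no library, and the interaction is the difference between them. Over all tested genes the correlation of the fold changes without and with the other agent was 0.480 for GDC-0941 and 0.913 for GSK126, as a description across genes, which are not independent replicates. The median absolute log2 fold change was 0.19 for GDC-0941 alone and 0.22 with GSK126, against 0.49 for GSK126 in either setting.

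**Figure D2:**
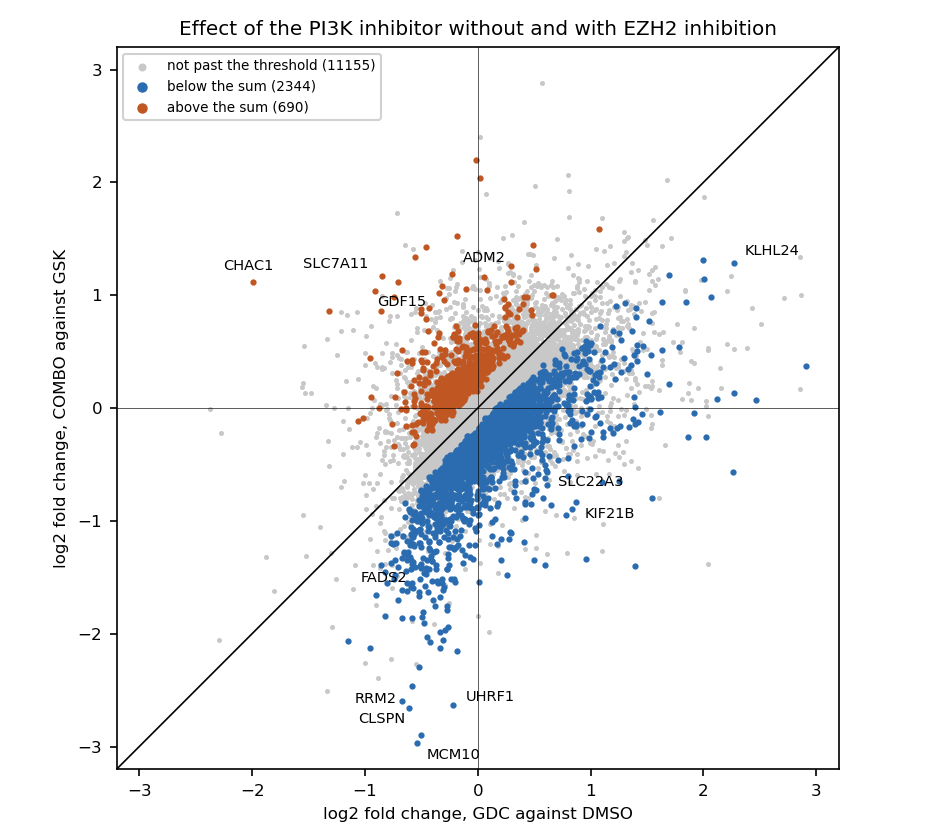
Log2 fold change of each tested gene on GDC-0941 without GSK126 (x axis, GDC against DMSO) and with it (y axis, COMBO against GSK). Genes on the diagonal are additive; the 2344 genes below the sum (blue) lie under it, with MCM10, CLSPN and RRM2 lowest among the labelled genes, the 690 above it (orange) lie over it, with CHAC1 and SLC7A11 farthest among the labelled genes, and 10 genes fall outside the axes.

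Genes of DNA replication lay farthest below the sum. Of 58 tested genes of replication licensing and the fork, 42 were below the sum and none above, with a median interaction of -0.65 (-0.59 when centred). Without DMSO B or GDC B, and when centred, 3 members were above. Their median log2 fold change was -0.29 for GDC-0941 alone, -0.95 for GDC-0941 on top of GSK126, -1.25 for GSK126 alone and -2.28 for the pair. MCM10 (chromosome 10, 13161558 to 13211110), which helps activate the replicative helicase, stood at 142, 136 and 134 CPM under DMSO, 93.0, 98.3 and 90.1 under GDC, 31.5, 27.5 and 31.2 under GSK and 4.24, 3.77 and 3.42 under COMBO. The arms did not overlap, and the level fell by 2.97 on the log2 scale from GSK to COMBO and by 0.54 from DMSO to GDC. The product of the single effects would give 20.6 CPM, so COMBO was 5.36-fold lower than that product (interaction -2.42, SE 0.112, edgeR adjusted p = 3.41e-11). UHRF1 (chromosome 19, 4903080 to 4962154), which guides maintenance methylation of newly copied DNA, was at 66.5, 66.2 and 64.2 CPM under DMSO, 58.2, 56.6 and 54.0 under GDC, 16.2, 13.5 and 16.7 under GSK and 2.21, 2.97 and 2.04 under COMBO. GDC-0941 alone lowered it by only -0.22 on the log2 scale, and the interaction was -2.41 (SE 0.146). UHRF1 overlaps ARRDC5, and without stated use of strand the reads of overlapping genes cannot be told apart.

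CLSPN, the checkpoint adaptor claspin, averaged 116 ± 4.52 CPM under DMSO, 81.5 ± 2.85 under GDC, 31.1 ± 4.19 under GSK and 4.19 ± 0.313 under COMBO (SD, n = 3; interaction -2.40). CDC6, which loads the MCM helicase at origins, was at 8.03 ± 0.267 CPM in COMBO against 29.7 for the product (interaction -1.87), and CDC45, a subunit of the active helicase, at 5.56 ± 1.37 against 18.4 (interaction -1.75). FAM111B, a protease gene, had an interaction of -1.79 and DTL, the substrate receptor of the CRL4 ubiquitin ligase that degrades the licensing factor CDT1 in S phase, one of -1.96. DTL fell by only 0.19 with GDC-0941 alone and by 2.15 on top of GSK126. Among further members, named after their values were seen, MCM5 had an interaction of -1.25 and PCNA one of -0.95. Members with no call included ORC2 (0.16), ORC3 (0.23), ORC4 (0.21) and RFC1 (-0.02), which are subunits of the origin recognition complex and the clamp loader. In bulk RNA, fewer cells in a phase of the cycle and less RNA per cell cannot be told apart.

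**Figure D3:**
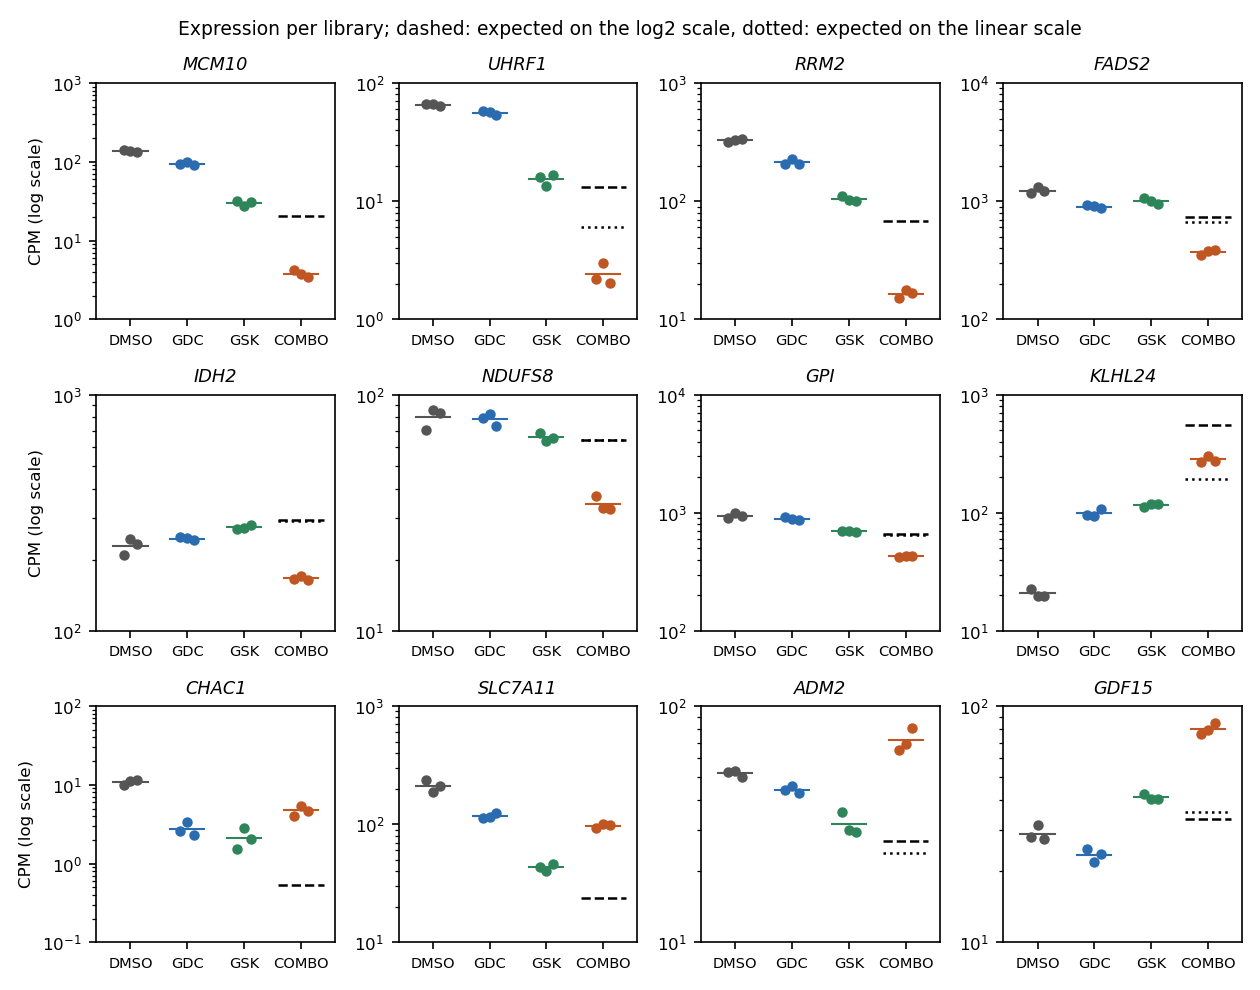
Expression of 12 genes in each library (points, CPM on a log axis) with the arm mean (line). In COMBO the dashed line marks the level expected if log2 changes add and the dotted line the level if CPM changes add (absent where that sum is below 0, as for MCM10, RRM2, CHAC1 and SLC7A11); COMBO lies under the dashed line in the first 8 genes and over it in CHAC1, SLC7A11, ADM2 and GDF15.

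The other lists of the dividing cell moved the same way. Of 65 mitosis genes 56 were below the sum and none above (median -0.50), a share of 86.2%. MYBL2, a transcription factor of late cell cycle genes, fell from 300 ± 6.57 CPM under DMSO to 215 ± 6.94 under GDC, 127 ± 6.09 under GSK and 36.1 ± 2.90 under COMBO (interaction -1.33), and the kinetochore gene SPC24 from 28.5 ± 2.50 to 23.0 ± 1.13, 14.9 ± 1.41 and 4.78 ± 0.461 (interaction -1.30). The kinases CDK1 (-1.00) and PLK1 (-0.47) were below the sum as well. MKI67, the gene of the Ki-67 antigen, was at -0.45 with an adjusted p of 0.0628. Of 41 genes of homologous recombination and the damage response, 22 were below and 1 above (median -0.51). EXO1, which resects DNA ends, had an interaction of -1.78 and RAD54L, which acts in strand exchange, one of -1.66, while BRCA1 was at -1.15. The gene above the sum was RAD50 (0.21).

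Of 33 nucleotide synthesis genes 17 were below the sum and 2 above (median -0.26), and the 6.06% above was close to the 4.86% of all tested genes. RRM2, the regulated subunit of ribonucleotide reductase, was at 319, 327 and 336 CPM under DMSO, 206, 228 and 207 under GDC, 111, 102 and 101 under GSK and 15.2, 17.7 and 16.7 under COMBO, with no overlap between arms. COMBO was 4.12-fold lower than the product of 68.5 CPM (interaction -2.04, SE 0.0858). Thymidylate synthase, TYMS, which overlaps ENOSF1, had an interaction of -1.28. Above the sum were the mitochondrial folate enzymes MTHFD2 (0.47) and MTHFD1L (0.38). The below-sum count fell to 11 without DMSO C, GDC A, GDC B, GSK B or COMBO A. Among 32 cyclins, CDKs, CDK inhibitors and E2F genes, 16 were below and 2 above (median -0.29), or 4 above without DMSO A, DMSO B or GDC C and when centred. E2F8 (-1.68) and E2F1 (-1.43), transcription factors of the E2F family, and PKMYT1 (-1.57), an inhibitory kinase of CDK1 that overlaps PAQR4, led the downward side. Cyclins A2 and E1 were at -0.57 and -0.50. The members above the sum were the CDK inhibitors CDKN1A (0.41) and CDKN1B (0.33). CDKN1A averaged 82.4 CPM under DMSO, 48.8 under GDC, 110 under GSK and 87.7 under COMBO, so its level under COMBO was near that of DMSO.

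Genes of energy metabolism changed less with GDC-0941 alone than on top of GSK126. Of 73 genes of the respiratory complexes and ATP synthase, 69 (94.5%) were below the sum and none above, the highest share of any list. Their median log2 fold change was 0.04 for GDC-0941 alone and -0.41 on top of GSK126 (median interaction -0.42, or -0.36 when centred). NDUFS8, a complex I subunit, was at 70.9, 86.3 and 83.9 CPM under DMSO, 79.3, 82.9 and 73.7 under GDC, 68.6, 63.3 and 65.8 under GSK and 37.2, 33.2 and 32.8 under COMBO. DMSO and GDC overlapped, and all COMBO libraries lay below all others (interaction -0.89, SE 0.101, edgeR adjusted p = 3.01e-06). ATP5J2, an ATP synthase subunit, was at 65.7 ± 7.21, 72.5 ± 2.88, 62.4 ± 3.03 and 39.7 ± 1.01 CPM in DMSO, GDC, GSK and COMBO (interaction -0.78). It overlaps the read-through gene ATP5J2-PTCD1 and has 7 named pseudogenes, so its counts are uncertain. Of 30 TCA cycle and pyruvate dehydrogenase genes 21 were below the sum and none above (median -0.29), or 12 without GDC B and 13 without GSK B. The mitochondrial dehydrogenases IDH2 and MDH2 had interactions of -0.81 and -0.58. IDH2 averaged 229 CPM in DMSO and was higher in GSK, at 274, yet lower in COMBO, at 167. Of 23 glycolysis genes 15 were below and none above (median -0.35). GPI, which isomerizes glucose 6-phosphate, was at 945 ± 45.6, 890 ± 21.7, 696 ± 7.70 and 427 ± 2.12 CPM (interaction -0.62), and phosphoglycerate kinase, PGK1, had an interaction of -0.57. Hexokinase 2, HK2, was at 0.01 and the glucose transporter SLC2A1 at -0.03.

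Sterol and fatty acid synthesis showed the same form. Of 34 tested members 20 were below the sum and none above (median -0.32). FADS2, a fatty acid desaturase that overlaps FADS1, was at 1171, 1306 and 1214 CPM under DMSO, 928, 902 and 875 under GDC, 1063, 995 and 940 under GSK and 352, 376 and 385 under COMBO. GDC and GSK each lay moderately below DMSO, while COMBO was 1.97-fold lower than the product of both (interaction -0.98, SE 0.0695). The desaturase SCD (-0.67), the fatty acid synthase FASN (-0.51) and the transcription factors SREBF1 (-0.58) and SREBF2 (-0.47) were also below the sum.

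**Figure D4:**
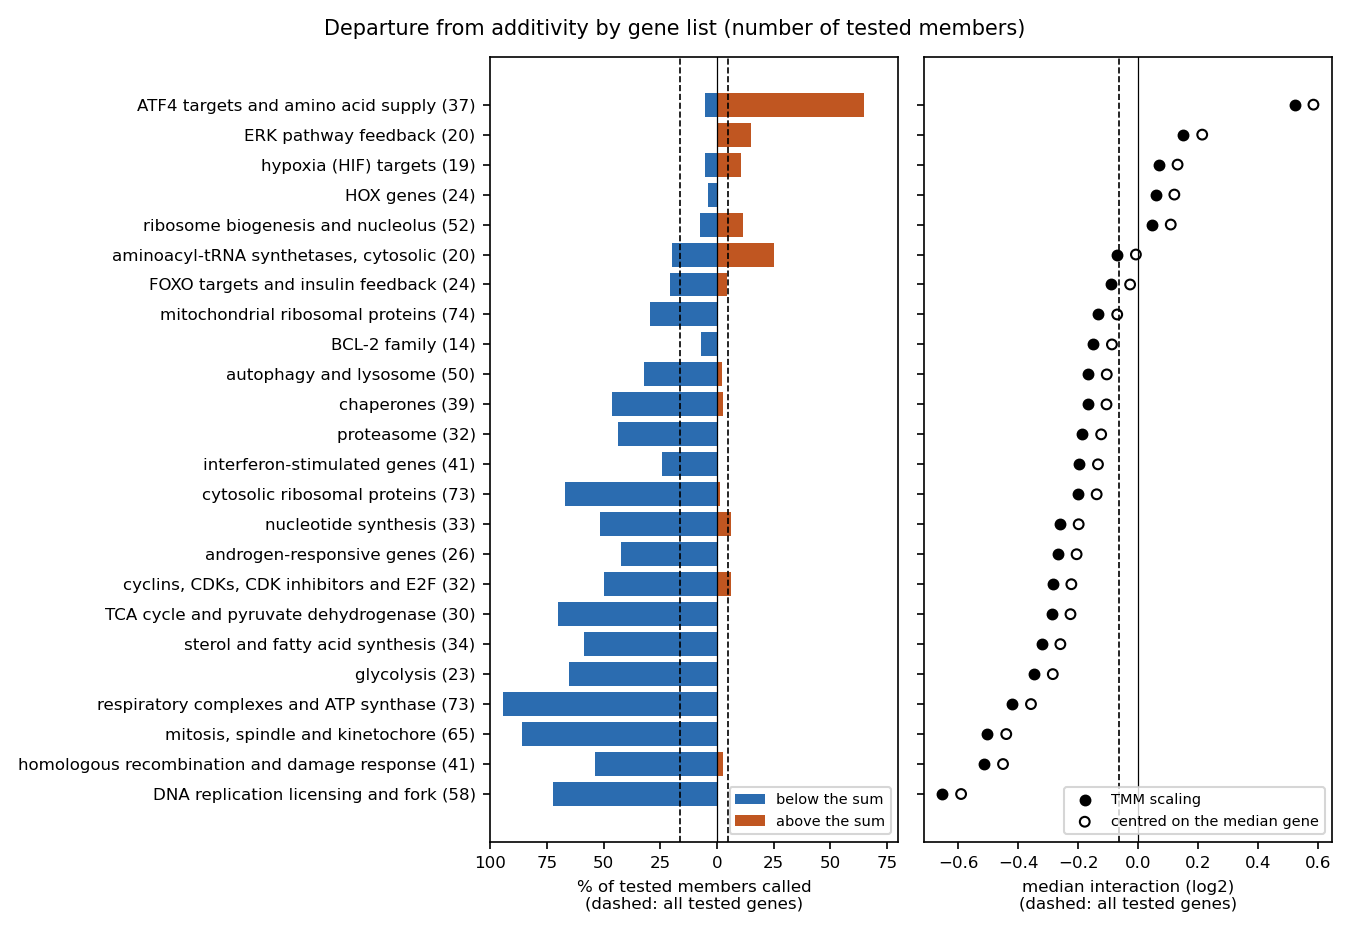
Left, percentage of each list's tested members (number in brackets) called below (blue) or above (orange) the sum, with dashed lines at 16.5% and 4.86% for all tested genes. Right, the median interaction of each list (log2) under TMM scaling (filled) and centred on the median gene (open); the respiratory, mitosis and replication lists have the largest shares below, and the ATF4 list is the only one with most members above.

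The protein synthesis and degradation lists departed less. Shares below the sum were 67.1% for cytosolic and 29.7% for mitochondrial ribosomal proteins, 43.8% for the proteasome and 46.2% for chaperones, against 16.5% of all tested genes. Below-sum calls made up 26.1% of tested genes with a mean log2 CPM over 6 and up to 8, and 42% of those over 8. The part of abundance in the counts of these lists was not tested. Among 73 cytosolic ribosomal proteins 49 were below the sum and 1 above (RPL9, 0.27), but the median was -0.20 and the count was sensitive to scaling. It was 16 when centred, and 11 to 31 without any single library other than GSK C or COMBO B. Over all tested genes the below-sum count fell as well, to 1649 of 14189 when centred and 1279 to 2046 in those fits. Above-sum calls over all tested genes were 1118 when centred and 732 to 1178 without single libraries. RPL13A was at -0.67 and RPS29 at -0.48. Both had risen with each agent, and they have 25 and 33 named pseudogenes. Mitochondrial ribosomal proteins were below the sum in 22 of 74 (median -0.13; 13 when centred), and in 5 to 12 without any single library other than GSK C, COMBO B or COMBO C. MRPS25 (-0.46) and MRPL23 (-0.40) led them. Of 32 proteasome genes 14 were below (median -0.19), or 5 to 9 without any single library but the same 3. The core subunit PSMA7 was at -0.51 and the deubiquitinase subunit PSMD14 at -0.43. Of 39 chaperones 18 were below (11 without GDC B or GSK A) and 1 above (DNAJB4, 0.46). The above-sum count was 4 when centred and without DMSO A or COMBO A, 3 without DMSO B, GDC B, GDC C or COMBO C and 2 without DMSO C, GDC A or any GSK library. Among the called were PDIA6 (-0.53) and PDIA4 (-0.49), which form disulfide bonds in the endoplasmic reticulum, and its chaperone HSPA5 (-0.43). PDIA6 averaged 303, 305 and 296 CPM in DMSO, GDC and GSK and 206 in COMBO. In ribosome biogenesis 6 of 52 members were above and 4 below (median 0.05). These shares were 11.5% and 7.69%, against 4.86% and 16.5% of all tested genes. POLR1E, an RNA polymerase I subunit, was at 68.2 ± 1.48, 59.4 ± 2.17, 34.1 ± 3.11 and 40.7 ± 2.33 CPM (interaction 0.46), while BOP1 (-0.51), NHP2 (-0.45), EBNA1BP2 (-0.29) and NOP58 (-0.26) were below. The above-sum count was 10 without DMSO B or GSK A and 11 when centred, and the below-sum count was 1 or 2 without DMSO A, DMSO C, any GDC library, GSK A, GSK B or COMBO A.

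Another set was raised by each agent and rose by less than the product in COMBO. KLHL24, a FOXO-responsive adaptor of a ubiquitin ligase, was at 22.8, 19.6 and 19.9 CPM under DMSO, 95.7, 92.9 and 108 under GDC, 112, 117 and 118 under GSK and 269, 304 and 274 under COMBO. COMBO was the highest arm in every library and still 1.99-fold lower than the 551 CPM of the product (interaction -0.99, SE 0.0951, edgeR adjusted p = 3.62e-07). SESN3, a stress-responsive inhibitor of mTORC1, was at 52.3 ± 5.07, 72.1 ± 6.03, 224 ± 10.1 and 185 ± 3.07 CPM (interaction -0.75). Over the FOXO list of 24 tested genes 5 were below and 1 above (BCL6, 0.37; 4 above without GDC C, 3 without COMBO A, 2 without DMSO B), a share near that of all tested genes, with a median of -0.09. The others below were CITED2 (-0.40), CAT (-0.35) and PIK3IP1 (-0.51).

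Of 26 tested androgen-responsive genes, 11 were below the sum and none above (median -0.27), or 7 without DMSO A or GSK A. TMPRSS2, a serine protease gene, was at 57.5 ± 2.62, 137 ± 13.7, 170 ± 23.5 and 269 ± 28.8 CPM (interaction -0.59). KCNN2, a potassium channel gene, was at 29.6 ± 0.515 CPM in DMSO and overlapped among the other arms, at 46.6 ± 4.07, 49.2 ± 4.78 and 46.3 ± 2.002 (interaction -0.74). KLK3, the gene of prostate-specific antigen, rose from 597 CPM to 1156 with GDC-0941, 1315 with GSK126 and 1843 with both (interaction -0.46). Of 10 prostate luminal markers, several of them on the androgen-responsive list as well, 6 were below the sum (3 without DMSO A, GDC B or GSK A).

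Against 16.5% of all tested genes, 32% of autophagy and lysosome genes were below the sum, or 16 of 50. The count was 8 when centred and 6 to 9 without any single library other than GSK C, COMBO B or COMBO C. Over all tested genes the below-sum count was then 1649 of 14189 when centred and 1279 to 1643 in those fits, of 14190 to 14509 tested. Above the sum was 1 member (ATG14, 0.35), or 4 without DMSO B and 2 without COMBO A or when centred. The lysosomal hydrolases GLA and NEU1 were at -0.52 and -0.46. NEU1 rose with each agent, whereas GLA fell with each. Of 41 tested interferon-stimulated genes 10 (24.4%) were below (6 when centred; 3 to 6 without any single library but the same 3) and none above (1 without DMSO A, DMSO C, GDC C or GSK C). SAMD9 had the largest value (-2.13) on 0.194 ± 0.121 CPM under DMSO, 0.725 ± 0.165 under GDC, 3.51 ± 0.991 under GSK and 2.84 ± 0.343 under COMBO. The antiviral enzyme gene OAS3 was at -0.76. In the BCL-2 family of 14 only BMF, a proapoptotic member, was called (-0.29), and it was not past the threshold when centred (edgeR adjusted p = 0.0694), with DESeq2 size factors (0.0513), with no filter (0.229), at a mean of 1 CPM (0.0681) or by DESeq2 (0.0693). It was at 15.4 ± 1.23, 24.4 ± 0.588, 101 ± 4.61 and 133 ± 5.33 CPM, against 160 for the product. HOXB13, a prostate lineage factor at 484 ± 34.5, 520 ± 10.5, 397 ± 15.4 and 304 ± 6.53 CPM, was the only one of 24 HOX genes called (-0.49). When centred 2 other HOX genes were above the sum, beside 1118 of all 14189 tested genes. Without any single library other than GSK B or COMBO C, 1 was above. In the list of other cell types the endothelial marker VWF (-1.01) and the mural marker PDGFRB (-0.97) were called below (2 of 6, or 1 when centred) at under 6 CPM on average in every arm.

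The list with the largest share above the sum was that of the amino acid stress response. ATF4 is a transcription factor that is translated under amino acid shortage and endoplasmic reticulum stress, and downstream of mTORC1. Of 37 tested genes of ATF4 targets and amino acid supply, 24 (64.9%) were above the sum and 2 below (PHGDH, -0.45, and EIF4EBP1, -0.34), with a median interaction of 0.52 (0.59 when centred). The median log2 fold change of the list was -0.35 for GDC-0941 alone and 0.14 on top of GSK126. CHAC1 (chromosome 15, 40953471 to 40956512), which degrades glutathione, was at 10.0, 11.1 and 11.6 CPM under DMSO, 2.56, 3.39 and 2.28 under GDC, 1.54, 2.85 and 2.03 under GSK and 4.06, 5.46 and 4.66 under COMBO. Each agent lowered it, and COMBO lay above both single arms and below DMSO, 8.65-fold higher than the product of 0.538 CPM (interaction 3.11, SE 0.263, edgeR adjusted p = 7.10e-08). Its promoter is shown because its window held the C/EBP-ATF response element motif TGATGNAAN, as no other examined gene named by rule did. Of the 66 genes named by rule, BOP1, RDH10 and any without a promoter in the set searched were not examined. The motif is on the reverse strand and in capitals here, ending 202 bases before the transcription start (RefSeq, GRCh38.p14, plus strand, chr15:40953221-40953309, 5′ to 3′).
CHAC1: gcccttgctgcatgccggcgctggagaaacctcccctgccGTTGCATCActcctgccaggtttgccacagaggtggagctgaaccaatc

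SLC7A11 (chromosome 4, 138164097 to 138242349), the cystine transporter subunit, was at 238, 188 and 210 CPM under DMSO, 113, 115 and 124 under GDC, 43.3, 40.2 and 46.4 under GSK and 92.5, 101 and 98.1 under COMBO. GDC-0941 lowered it by 0.85 without GSK126 and raised it by 1.17 with it (interaction 2.02, SE 0.105). ATF4 itself averaged 515 ± 23.7, 405 ± 6.43, 292 ± 9.33 and 463 ± 15.99 CPM in DMSO, GDC, GSK and COMBO (interaction 1.01, SE 0.0615, edgeR adjusted p = 8.15e-10). Its COMBO level was thus between GDC and DMSO rather than below GSK. Members differed in where COMBO came to lie. ADM2, a secreted peptide gene, and GDF15, a stress cytokine gene, reached their highest level in COMBO. ADM2 was at 52.5, 53.2 and 50.3 CPM under DMSO, 43.9, 46.0 and 42.7 under GDC, 35.7, 30.0 and 29.2 under GSK and 65.4, 69.2 and 80.7 under COMBO (interaction 1.41). GDF15, which overlaps MIR3189, was at 28.9 ± 2.06, 23.4 ± 1.49, 41.05 ± 1.18 and 79.8 ± 4.33 CPM (interaction 1.26). DDIT3, the gene of the stress factor CHOP, was also highest in COMBO, at 27.6 CPM against 13.6, 12.3 and 19.3 (interaction 0.68). Asparagine synthetase, ASNS, and TRIB3, a pseudokinase gene, stayed near GSK: ASNS was at 248, 196, 105 and 122 CPM (interaction 0.56) and TRIB3 at 61.0, 38.8, 24.7 and 27.2 (interaction 0.80).

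Cytosolic aminoacyl-tRNA synthetases, which charge tRNAs and in part answer to ATF4, divided. Above the sum were CARS (0.47), GARS (0.45), SARS (0.40), YARS (0.36) and NARS (0.19), and below it VARS (-0.50), HARS (-0.30), FARSB (-0.23) and IARS (-0.16), out of 20. The shares were 25% above and 20% below, against 4.86% and 16.5% of all tested genes. CARS was at 102 ± 4.76, 83.9 ± 3.39, 66.3 ± 2.23 and 75.2 ± 1.77 CPM and VARS at 390 ± 30.1, 345 ± 2.70, 242 ± 4.58 and 151 ± 2.13. When centred, 8 were above and 2 below, beside 1118 above and 1649 below of all 14189 tested genes. As many synthetases were above without COMBO A. Without any single library other than GSK C, COMBO B or COMBO C, 1 or 2 were below, where 1279 to 1643 of all tested genes were. Of 19 tested HIF targets 2 were above (10.5%, against 4.86% of all tested genes). Below was 1 (CA12, -0.38), or 5.26% against 16.5%. VEGFA fell with each agent alone, from 60.2 ± 2.02 CPM to 39.1 ± 3.12 and 41.1 ± 2.72, and stood at 41.3 ± 6.61 with both (interaction 0.64). The HIF hydroxylase EGLN1 was at 0.54. Of 20 ERK feedback genes 3 were above (15%, against 4.86% of all tested genes) and none below. HBEGF, an EGF receptor ligand gene, was at 7.29 ± 0.213, 3.48 ± 0.961, 7.81 ± 0.332 and 7.22 ± 0.341 CPM (interaction 0.95), with a log2 fold change on GDC-0941 of -1.06 without and -0.11 with GSK126. SPRED1, a RAS pathway inhibitor, was at 0.47 and the immediate early gene IER2 at 0.38.

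Outside the lists, the rule on size named further genes above the sum. RDH10, a retinol dehydrogenase gene, was at 20.6, 19.6 and 18.6 CPM under DMSO, 16.1, 13.5 and 13.9 under GDC, 20.8, 19.8 and 15.9 under GSK and 35.4, 36.0 and 32.5 under COMBO, where all libraries exceeded all others (interaction 1.32, SE 0.131). MET, the hepatocyte growth factor receptor gene, was at 3.33 ± 1.03, 2.05 ± 0.338, 5.54 ± 1.17 and 7.87 ± 0.873 CPM (interaction 1.18). The glycine transporter gene SLC6A9, which overlaps CCDC24, was at 17.3 ± 0.668, 13.4 ± 0.336, 6.17 ± 0.555 and 12.6 ± 0.770 CPM (interaction 1.37). IFRD1, a transcriptional coregulator gene, was at 46.4 ± 1.46, 28.2 ± 0.343, 38.0 ± 1.85 and 47.0 ± 3.70 CPM (interaction 1.03). The transporter genes SLC16A9 and SLC16A6 had interactions of 1.13 and 1.04.

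The effect of one agent turned its direction in a minority of genes. GDC-0941 changed 3574 genes both without and with GSK126, 277 of them (7.75%) in opposite directions, 200 up without and down with GSK126 and 77 the other way. GSK126 changed 9262 genes both without and with GDC-0941, 183 of them (1.98%) in opposite directions, 145 up then down and 38 down then up. All 277 and all 183 had a called interaction, which is no separate support, since the interaction is the difference between the comparisons used to pick them. The 277 fell to 174 without DMSO A, 150 without DMSO C, 160 without GDC A, 181 without GDC B, 183 without GDC C, 182 without GSK A and 155 without GSK B. The 183 fell to 110 without DMSO C and 115 without GDC A or GSK B. KIF21B, a kinesin gene, turned for both agents. It was at 2.32, 2.82 and 3.08 CPM under DMSO, 4.77, 4.99 and 5.57 under GDC, 6.04, 6.09 and 7.03 under GSK and 3.66, 3.11 and 3.64 under COMBO. Each single arm lay above DMSO, and COMBO lay between DMSO and both of them, 3.33-fold lower than the product (interaction -1.74, SE 0.209, edgeR adjusted p = 6.20e-06). SLC22A3, an organic cation transporter gene, went from 10.8 ± 0.911 CPM under DMSO to 15.9 ± 2.17 under GDC, and from 11.5 ± 0.347 under GSK to 7.50 ± 0.439 under COMBO (interaction -1.22). GLDC, of the glycine cleavage system, was at 3.99 ± 0.174, 5.70 ± 0.692, 5.96 ± 0.495 and 3.62 ± 0.205 CPM (interaction -1.21). In the upward direction the turned genes with the largest effects were CHAC1, for both agents, SLC7A11 for GDC-0941 and ADM2 for GSK126.

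The transcripts of the inhibited enzymes departed little. EZH2 was at 105 ± 2.75, 81.8 ± 6.93, 56.3 ± 0.757 and 34.9 ± 0.815 CPM, a small departure below the sum (interaction -0.33, SE 0.0827, edgeR adjusted p = 0.00727). The catalytic PI3K subunit genes PIK3CA, PIK3CB and PIK3CD were not past the threshold, with interactions of -0.08 (95% interval -0.34 to 0.19), -0.10 (-0.27 to 0.06) and 0.02 (-0.15 to 0.20). PIK3CG did not pass the filter on low counts. These transcript levels say nothing of enzyme activity.

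Several single-gene calls changed when a library was left out. TMM chose its reference anew in these fits, and only those without GSK C, COMBO B or COMBO C took a DMSO or GDC library. The separate parts of the left-out library and of the reference were not tested. When centred on the median gene, with all libraries kept, BMF, BOP1, FARSB, IARS, NOP58, PIK3IP1 and PDGFRB lost their call as well. BMF lost its call without any single library other than DMSO A, GSK C, COMBO B or COMBO C (edgeR adjusted p 0.0565 to 0.197), BOP1 without any other than DMSO B, GSK C or COMBO C (0.0681 to 0.18), and MRPL23 without any other than DMSO B, GSK C or COMBO B (0.0504 to 0.108). EZH2 lost it without DMSO C, GDC A, GSK B or COMBO A (0.0583 to 0.0915), GLA without GDC B (0.0563) and SAMD9 without DMSO C (0.0807). PIK3IP1 lost it without DMSO A, DMSO B, GDC A, GDC C, GSK B or COMBO A (0.0989 to 0.179) and EIF4EBP1 without DMSO A, any GDC library, GSK A or COMBO A (0.0576 to 0.122). Of the synthetases, IARS lost it without any 1 of the 12 libraries (0.0712 to 0.458), FARSB without any other than GSK C, COMBO B or COMBO C (0.0595 to 0.149), HARS without DMSO A, DMSO C, GDC A, GDC B, GSK B or COMBO A (0.0591 to 0.103) and NARS without GSK C, COMBO B or COMBO C (0.0545 to 0.066). RAD50 lost it without GSK C or COMBO B (0.0653 and 0.066), RPL9 without GDC C, GSK B, GSK C, COMBO B or COMBO C (0.0514 to 0.0741), EBNA1BP2 without DMSO A, DMSO C, any GDC library, GSK A, GSK B or COMBO A (0.053 to 0.112) and NOP58 without any DMSO or GDC library, GSK A or COMBO A (0.0515 to 0.153). PDGFRB lost it without any single library other than DMSO C, GSK C or COMBO C (0.0544 to 0.23), and MKI67 passed without GSK B (0.0138) or COMBO C (0.0372). With all libraries thinned to the smallest total, SAMD9, with 1, 6 and 6 counts under DMSO, had an interaction of -0.90 (edgeR adjusted p = 0.473). Thinning also removed the calls of VWF (0.218), MTHFD1L (0.189), ATG14 (0.132), DNAJB4 (0.112), SPRED1 (0.0737) and IER2 (0.0539). Most of the genes that lost a call without a library lost it here too.

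Whether a gene departs from additivity also depended on the scale. When CPM differences were added instead of log2 differences (limma on CPM), 1400 genes lay above the sum and 1594 below. Of the genes below the log2 sum, 1438 were also below the CPM sum, and 75 were called above it. None of the 690 genes above the log2 sum were called below the CPM sum, and 631 were called above it. Where both agents move a gene the same way, the product lies above the CPM sum. A gene above the product then lies above the CPM sum as well. Among the named genes, 21 had the opposite sign on the CPM scale. For MCM10 the CPM sum is below 0, so COMBO at 3.81 CPM exceeded it by 16.9 CPM, and for RRM2 COMBO exceeded it by 24.9 CPM. KLHL24 exceeded the CPM sum by 88.5 CPM while lying under the log2 product. CDK1 and PLK1 exceeded the CPM sum by 73.8 and 35.8 CPM. By contrast FADS2, NDUFS8, IDH2 and GPI below the sum, and GDF15 above it, had the same direction and call on both scales. CHAC1, SLC7A11 and ADM2 did too, but each agent lowered them, so lying above the product placed them above the CPM sum. For CHAC1 and SLC7A11 that sum is below 0 (-6.03 and -51.7 CPM), so no COMBO level could lie below it.

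Promoters were searched for 3 motifs in the 250 bases before the start, on both strands. The E2F sites TTTCGCGC and TTTGGCGC occurred in 0.996% of 27305 promoters, in 1.68% of the 10834 tested genes with a promoter, in 1.90% of 1894 genes below the sum and in 1.27% of 550 above it. Among the 112 genes below the sum by 1 or more it was 5.36% (6 genes), and in the replication list 10.4% (5 of 48). In the other lists searched it was 6.67% for the respiratory list (4 of 60) and 5.36% for mitosis (3 of 56). It was 2.78% for homologous recombination (1 of 36) and 0 of 29 for the ATF4 list. TGATGNAAN occurred in 3.18% of all promoters, 1.38% of tested genes, 1.11% of those below and 1.82% of those above, and in 2 of 29 of the ATF4 list (6.90%). The E-box CACGTG was found in 9.03% of tested genes, 10.1% below and 10.4% above. DTL held an E2F site that ends at the last base before its transcription start (RefSeq, GRCh38.p14, plus strand, chr1:212035700-212035747, 5′ to 3′, site in capitals). It is shown as the only such site among the genes named by rule that were examined, with the same omissions as for CHAC1.
DTL: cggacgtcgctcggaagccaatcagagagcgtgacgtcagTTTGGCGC
A motif match describes the sequence of the window, and does not show that a factor binds there.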

How the data were processed

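PolyA RNA of 12 libraries was sequenced on a NextSeq 500, and the authors aligned reads to hg38 with STAR and counted them per gene symbol with HTSeq (versions, annotation and use of strand are not given in the sources used here). The deposited values are counts, whole reads per gene that are not normalized. The summary lines for reads outside genes, 13.7% to 23.0% of reads, and for other uncounted reads entered neither library sizes nor tests. A deposited table normalized with DESeq2 was not used here. The number of per-sample columns that mapped to no library was 0.

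The counts were tested with edgeR 4.0.16 in R 4.3.3 (glmQLFit, glmQLFTest, two-sided, TMM, filterByExpr, 1 fit of all 12 libraries with 1 coefficient per arm). The standard error is the absolute log2 fold change divided by the square root of F. CPM are TMM-scaled, and the product is the mean CPM of GDC times that of GSK, divided by that of DMSO. Folds given against the product come from the fitted interaction. They can therefore differ slightly from the ratio of the printed levels. Depth was 8785218 to 44437751 counts in genes, and replicates differed by more than sampling noise (chi-square per degree of freedom 1.76 to 6.18). The letters A, B and C were not found to pair the samples. Deviations from the arm means correlated between same-letter libraries at -0.08 to 0.19 (18 pairs, 2 over 0.1). Between different-letter libraries they correlated at -0.15 to 0.10 (36 pairs, 1 over 0.1). Such correlations cannot show that plates of the same letter were handled apart.

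The genes, lists and rules were chosen with earlier results of these data known, so lists are described by counts and medians, with no set test. Named genes were the 10 largest interactions in each direction with an adjusted p under 0.05 and a mean log2 CPM of at least 2, up to 2 called members per list by absolute interaction, up to 2 genes per direction that each agent turned, and the genes of the inhibited enzymes, 66 in all. A further 47 list members were named after their values were seen. Some items are not reported here. Of the 66, 27 overlap another counted gene or have a named pseudogene in RefSeq, so their counts are uncertain. RefSeq matched 21835 of 23228 symbols (94%). Alternatives were DESeq2 1.42.0, limma-voom (limma 3.58.1), other scalings and filters, a replicate block, fits without each library and addition of CPM. Thinned libraries and other TMM reference libraries were added after seeing the data. Scripts were tested on simulated data.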

Additional observations from a re-analysis of the deposited data

Results flagged for a closer look

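Turned genes were picked for opposite calls without and with the other agent and a called interaction, so that interaction is no separate support. The genes named by this rule were 6. These are KIF21B (interaction -1.74), SLC22A3 (-1.22) and GLDC (-1.21) on the downward side and ADM2 (1.41), SLC7A11 (2.02) and CHAC1 (3.11) on the upward side. KIF21B and CHAC1 turned for both agents, SLC22A3 and SLC7A11 for GDC-0941, and GLDC and ADM2 for GSK126. CHAC1, KIF21B and GLDC averaged under 12 CPM in every arm. The direction and call of these 6 genes were the same in the 21 alternatives on the log2 scale and when CPM differences were added. For CHAC1, SLC7A11 and ADM2, which each agent lowered, the direction in CPM followed from that on the log2 scale.

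The share of reads outside annotated genes, which enters no test of genes, was 14.2% under DMSO, 15.6% under GDC, 18.8% under GSK and 21.8% under COMBO on average. It was above the DMSO level in every other arm and 1.68 percentage points above the sum of the single effects (SE 0.709). Its part in the interactions was not tested.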

How the results depend on the processing

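The 690 genes above the sum became 1118 when the interaction was centred on the median gene, 1638 with no filter, 1151 with a mean of at least 1 CPM, 1400 when CPM differences were added, 409 with all libraries thinned to the smallest total and 31 at an absolute interaction of at least 1. They became 1122, 1179 and 1166 with GSK A, B and C as TMM reference and 1123, 1123 and 1152 with COMBO A, B and C. The 2344 genes below the sum became 1319 with no filter, 1545 with thinned libraries, 158 at an absolute interaction of at least 1 and 1557 with GSK B as reference. Without single libraries the counts ranged from 732 to 1178 above and from 1279 to 2231 below. In these fits, in that with no filter and in that at 1 CPM TMM chose its own reference anew. Genes that GDC-0941 changed in opposite directions ranged from 150 to 249 without single libraries and were 175 by DESeq2. For GSK126 the range was 110 to 185, and DESeq2 gave 117. The replicate block gave 684 genes above and 2235 below, of which 629 and 2206 were shared with the fit without it. The letters were not found to pair the samples, and with the block RAD50 (adjusted p = 0.0528), NARS (0.053), IARS (0.0562) and RPL9 (0.0701) were no longer past the threshold and MKI67 (0.0142) was, with no other named call changed. DESeq2 called 840 above and 1674 below among 11889 genes, and limma-voom 662 and 2376.

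Of 2484 comparisons over 113 genes and 22 alternatives, 2263 kept direction and call, 189 lost the call, 4 gained it and 28 changed sign. When CPM differences were added, 21 changed sign. The departures in CPM became 22.8 for BMF, 13.9 for CDC6, 7.54 for CLSPN, 5.01 for EXO1, 1.47 for EZH2, 88.5 for KLHL24, 16.9 for MCM10, 2.67 for PIK3CA, 2.88 for RAD54L, 24.9 for RRM2, 19.3 for TMPRSS2, 17.4 for CCNA2, 17.6 for FARSB, 41.5 for IARS, 3.28 for EBNA1BP2, 5.14 for NOP58, 20.3 for PIK3IP1, 0.945 for CA12, 73.8 for CDK1, 10.8 for PCNA and 35.8 for PLK1. The other sign changes were in genes that were not called. PIK3CA (-0.08) became 0.025 with no filter and ranged from -0.10 to 0.065 without single libraries, positive without DMSO A, DMSO C, GDC C, GSK B or COMBO A. PIK3CD (0.02) ranged from -0.0033 to 0.13, negative without GSK C. For these shifts the cause was not tested. Calls were less frequent among genes with few counts, and the part of depth in this was not tested. Intervals cover the spread between plates of a single line.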
